A study of Mus musculus with 6 samples.

Results

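The genes described here are the histone genes of the mouse genome as they were counted in the anterior cingulate cortex after social defeat. They were chosen by symbol: every gene of the count table whose symbol has the form of a histone gene in the current or the older naming, from H1 linker histones to core histones H2A, H2B, H3 and H4. 103 of the 45777 genes in the table matched. 67 are classed as clustered by the form of their symbols and 36, the remaining matches, as variant. The clustered genes stand in the histone gene clusters on chromosomes 13, 3 and 11, except Hist1h2al, which lies elsewhere on chromosome 13, and H4f16, on chromosome 6. The choice of a gene used no measured value, but the family was brought forward after H2aw had been seen among the genes that were higher with stress. The stress values below are therefore a description of the family and lend no support to a change in it.

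All libraries were made from BALB/c mice, which are inbred, and from 1 tissue, the anterior cingulate cortex of the medial frontal lobe. 3 libraries were from mice put through social defeat, that is, repeated attack by a dominant mouse, over 5 days, and 3 were from mice that were not stressed. No other allele, agent or treatment is named for either group, and age and sex are not given in the labels used here. The labels number the replicates and do not say whether each is a separate animal, so p-values measure the spread between these libraries only, which may be technical.

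Clustered histone genes are transcribed mostly in S phase, when new DNA needs new nucleosomes. Their messenger RNAs usually end at a short stem-loop, which the stem-loop binding protein holds, and carry no poly(A) tail. Variant histone genes are transcribed in resting cells too, end in ordinary poly(A) tails and supply the histones that neurons, which no longer divide, exchange into their chromatin. The low-input kit used here starts complementary DNA at runs of A, so a clustered histone message is reached only where it has a tail or an internal run of A. A single clustered gene can make both forms, with a tailed form that runs past the stem-loop to a distant poly(A) signal.

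The stem-loop was searched for in the 3′ untranslated region of every annotated coding transcript as a run of 16 bases. The run was GG, 4 pyrimidines, a loop of 4 bases that begins with T, 4 purines and CC. The 6 bases of each arm had to pair with those of the other, with G to T allowed. The windows below show it for the genes described in full in which it was found, with 5 bases on each side, because the length of transcript annotated beyond this element sets the members apart. They are read 5′ to 3′ from the GENCODE vM21 transcripts of build GRCm38, and the capitals mark the stem-loop.
H2aw: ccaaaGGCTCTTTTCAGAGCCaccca
H2bu2: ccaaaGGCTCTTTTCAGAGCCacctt
H1f2: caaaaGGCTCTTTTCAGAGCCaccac
H4c4: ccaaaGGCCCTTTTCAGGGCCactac
H2ac18: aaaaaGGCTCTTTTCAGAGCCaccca
H2ac20: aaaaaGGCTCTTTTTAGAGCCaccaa
H2bc11: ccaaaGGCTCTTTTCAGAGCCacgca
H2afx: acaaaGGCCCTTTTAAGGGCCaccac
The transcript of H2aw ran on for 1643 bases after its stem-loop, that of H1f2 for 840, that of H4c4 for 770 and that of H2bu2 for 169. The transcripts of H2ac18, H2ac20 and H2bc11 ended 35, 57 and 23 bases after theirs. H2afx, the gene of the H2A variant that is phosphorylated at DNA breaks, was placed among the variants by its symbol, yet it carries the element with 822 bases of transcript after it. The element was found in 118 of 43649 transcripts of other coding genes (0.27%). A match is a description of the letters and does not show how a message was processed.

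The whole table had 41623899 to 47212982 counts per library, and 19227 genes passed a filter on low counts. On the first principal component, which held 34.5% of the variance, non-stress 2 and 3 lay at 37.4 and 27.4, apart from non-stress 1 at -11.7 and the stress libraries at -20.4 to -14.9. The 7 neuron markers summed to 10015 to 10198 CPM (counts scaled to library size) without stress and to 9836 to 9970 CPM with stress, and the 3 testis markers summed to at most 0.085 CPM. Bulk libraries cannot tell a change in the number of cells of a type from a change in RNA per cell.

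Variant genes held most histone counts. The 36 variant genes summed to 1225, 1201 and 1206 CPM in non-stress 1 to 3 and to 1266, 1264 and 1239 CPM in stress 1 to 3. The 67 clustered genes summed to 87.6, 88.7 and 94.4 CPM without stress and to 104, 108 and 102 CPM with stress. Over the 6 libraries the variants made up 92.7% of histone counts and the clustered genes 7.32%. Many clustered genes share much of their sequence with other members, while H2afz, H3f3b and H1f0 share none. How reads of shared sequence were counted is not given. If they were dropped, these shares understate the clustered genes. Of 149 small nucleolar and other RNAs without a poly(A) tail in the table, 17 passed the filter, and all 149 summed to 17.0 to 21.6 CPM. Small nucleolar RNAs are short as well as untailed, and the part of the tail in these levels was not tested.

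Only part of the family could be tested. Of the 67 clustered genes, 66 had a count in at least 1 library and 34 passed the filter. The clustered gene with no count was H1f6, a testis linker histone. Of the 36 variant genes, 16 had a count and 9 passed. The 60 members that did not pass are described by their counts alone. Among clustered genes, 15 of 19 H2A genes and 14 of 18 H2B genes passed, against 3 of 12 H4 genes, 2 of 6 H1 genes and none of the 12 H3 genes. The 12 clustered H3 genes had 0 to 11 counts in any library and summed to 0.695 to 0.978 CPM, and 1 library's floor of 3 counts is 0.0635 to 0.0721 CPM. The single variant H2B gene, H2bfm, had no count. Most untested variants are germ-line H2A genes, nearly all on the sex chromosomes: the 21 H2al and H2afb genes together had 6, 2 and 6 counts without stress and 10, 3 and 3 with stress. Many of the clustered H3 genes and of the H2al genes are near-copies of one another, so their low counts carry the same limit on shared reads.

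Among the variants, H3f3b and H3f3a encode the same replacement H3 protein, which is laid down outside S phase. H3f3b had 445, 429 and 420 CPM without stress and 460, 463 and 447 CPM with stress, and H3f3a had 197, 168 and 192 against 206, 203 and 197 CPM. H3f3b was the highest member in every library, and H3f3a came after H2afz in the order of means. H2afz, which encodes an H2A variant found around transcription start sites, had 234, 217 and 227 CPM without stress and 235, 235 and 228 CPM with stress. H1f0, the linker histone of cells that have stopped dividing, had 143, 168 and 161 against 151, 149 and 157 CPM, with the stress libraries inside the non-stress range. Per kilobase of the longest coding transcript, the order at the top changed: H2afz had 214 CPM per kilobase, H3f3b 177, H1f0 75.4, H3f3a 68.3, H2afx 49.0, H2afv 37.0 and H2afj 34.9.

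Clustered genes were lower, and a few of them carried the class. H2bu2, an H2B gene of the small cluster on chromosome 11, had 24.2, 25.3 and 25.5 CPM without stress and 25.9, 29.0 and 25.3 CPM with stress. H2bc4, an H2B gene of the large cluster on chromosome 13, had 17.8, 17.9 and 19.4 against 20.5, 22.0 and 19.5 CPM. Per kilobase H2bu2 reached 42.1 CPM and H2bc4 16.9, levels above H1f10, a variant linker histone, at 9.92. H2aw, the H2A gene beside H2bu2, had a mean of 8.16 CPM over all libraries but 3.80 CPM per kilobase. Its transcript is 2146 bases long in GENCODE, and RefSeq ends the gene sooner. Of the 67 clustered genes, 12 had a mean of 1 CPM or more. The plot of histone levels by library shows the 2 classes on 1 axis.

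**Figure D1:**
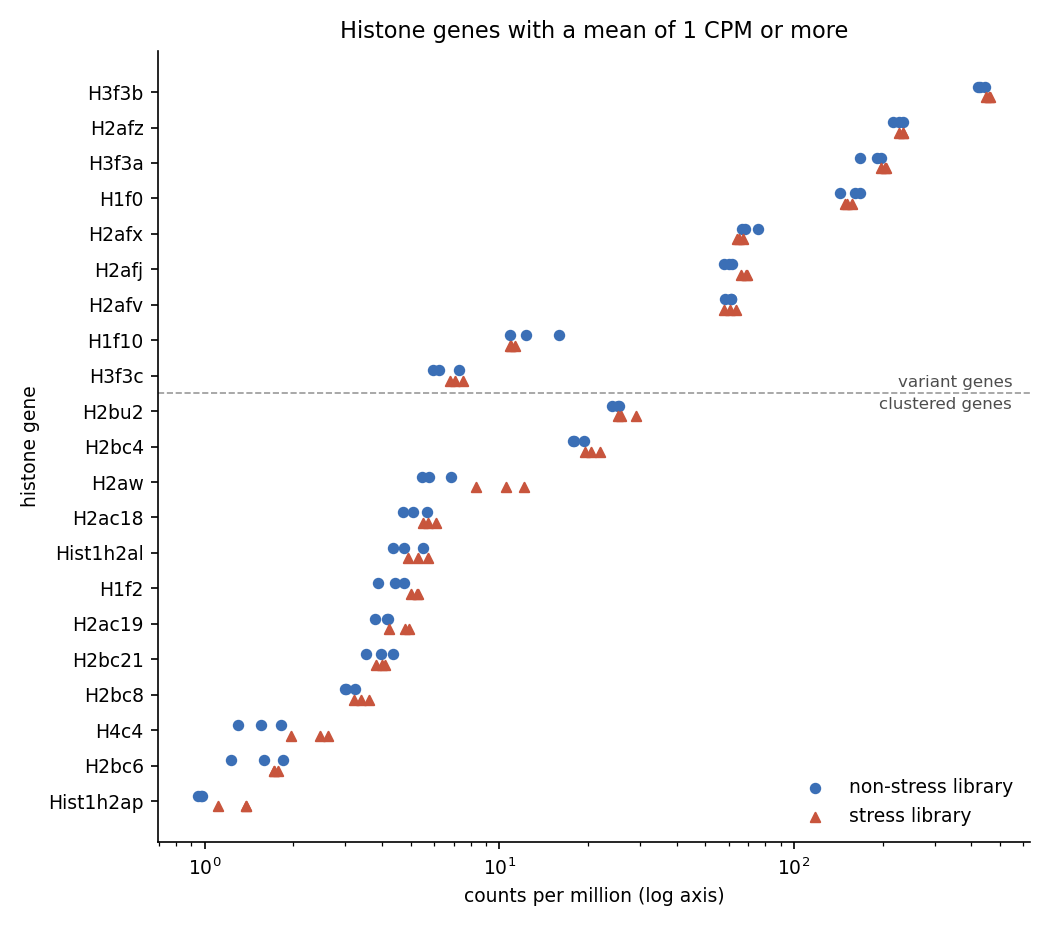
Level of each histone gene with a mean of 1 CPM or more, in CPM on a log axis, with 1 circle per non-stress library and 1 triangle per stress library. Variant genes stand above the dashed line and clustered genes below it; the stress libraries of H2aw, at 8.31 to 12.1 CPM, lie to the right of its non-stress libraries at 5.46 to 6.87 CPM.

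Clustered genes were then read by the annotated end of the transcript, as a description. Ends and lengths are those of GENCODE. RefSeq ends some of these genes sooner, H4c4 at base 23581969 against 23582735 in GENCODE and H1f2 at 23739531 against 23740367. The groups below therefore depend on the annotation. 21 clustered genes had transcripts that end at the stem-loop, within 100 bases of it, and their median level was 0.183 CPM. In 23 the transcript ran past the stem-loop, with a median of 0.292 CPM and a highest value of 25.9 CPM, that of H2bu2. In 7 the 3′ untranslated region held no stem-loop, as in H2bc4 and H2bc21, and in 15 no such region was annotated. Each gene was placed by its longest coding transcript. Hist1h2bp is among the 7, yet its shorter coding transcript ends 38 bases after a stem-loop. H1f1 and H3c13, also among them, have annotated regions of only 48 and 37 bases. The genes that ran past the stem-loop summed to 49.4 CPM, against 15.1 CPM for those that ended at it. 12 of these 23 had a poly(A) signal (AATAAA or ATTAAA) in their last 50 bases and summed to 41.8 CPM, among them H2bu2, H2aw and H1f2. None of the 21 that ended at the stem-loop had one, while 66.1% of transcripts of other coding genes did. Per kilobase the order of the medians was the other way, 0.398 CPM for genes that ended at the stem-loop and 0.179 CPM for those that ran past it, whose transcripts are longer.

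**Figure D2:**
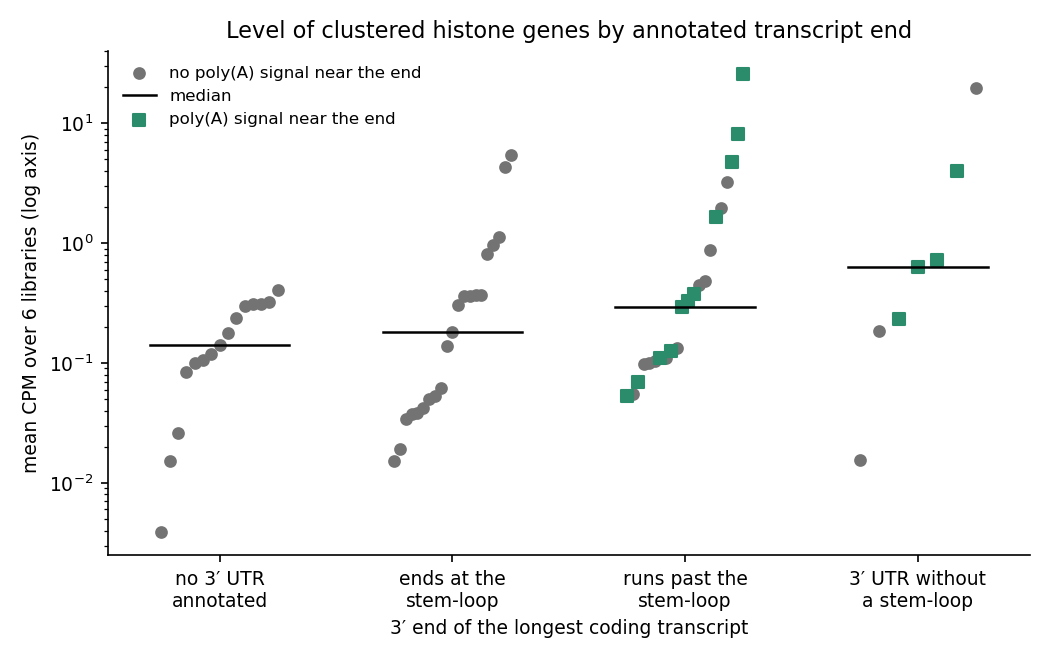
Mean level of each clustered gene over the 6 libraries, in CPM on a log axis, by the annotated 3′ end of its longest coding transcript; squares have a poly(A) signal near the end, circles do not, and bars are medians. H1f6, at 0, enters its median and cannot be drawn; the highest gene that runs past the stem-loop is at 25.9 CPM and the highest that ends at it is at 5.47 CPM.

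3 genes whose transcripts end at the stem-loop still had 1 CPM or more: H2ac18, H2ac19 and Hist1h2ap, all H2A genes, the last 2 named here after their values were seen. H2ac18 had 5.67, 4.72 and 5.09 CPM without stress and 6.10, 5.74 and 5.50 CPM with stress, with overlap (log2 difference 0.16, adjusted p = 0.577 in edgeR). Of the stretches of 50 bases in its transcript, 89.2% also occur in another member, and every one in H2ac19 does, so the counts of this pair cannot be assigned to 1 copy with certainty. They also lie opposite annotated antisense transcripts, and the use of strand in counting is not given in the sources used here. Hist1h2ao and Hist1h2ap share 403 such stretches. H2aw shared 2.0% of its stretches with other members and H2bu2 none. Only members were compared, so sequence shared with other genes is not counted, and H2aw shares exonic bases with Trim17, as given below. Hist1h2al is listed by RefSeq as a transcribed pseudogene. It had 4.35, 4.74 and 5.51 CPM without stress and 5.28, 5.74 and 4.90 CPM with stress, with overlap (log2 difference 0.12, adjusted p = 0.719).

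No histone gene passed the threshold between the groups. In the quasi-likelihood test of edgeR, with Benjamini-Hochberg adjustment over all 19227 genes, 0 of 43 members had an adjusted p under 0.05, where 1 gene of the whole table did (0.0052%). At an unadjusted p under 0.05, 5 members were higher with stress and 0 lower, beside 5.8% of all genes higher and 6.27% lower. Those 5 were H2aw, H4c4, Hist1h2ao, H2bc4 and H2afj. DESeq2 called 1 member, H2aw, where it called 0.828% of 14006 genes. The 14006 are the genes to which it gave an adjusted p, and many of the 43 members, H2ac20 and H2bc11 among them, had none. Since H2aw was the gene that brought the family forward, that call is no independent evidence.

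H2aw encodes a replication-dependent H2A protein and lies on chromosome 11 at chr11:58954685-58955192 (GRCm38.p6, RefSeq). It had 250, 257 and 289 counts in non-stress 1 to 3 and 435, 362 and 541 in stress 1 to 3, which is 5.79, 5.46 and 6.87 against 10.5, 8.31 and 12.1 CPM. All 3 stress libraries were above all 3 non-stress libraries, and the stress libraries spread more widely. The means were 6.04 ± 0.735 CPM and 10.3 ± 1.88 CPM (SD, n = 3). The fitted log2 difference, stress minus non-stress, was 0.77 (SE 0.15, adjusted p = 0.291 in edgeR). DESeq2 gave an adjusted p of 0.000526. Without non-stress 1, edgeR gave 0.74 with an adjusted p of 0.036, in a fit that called 3.85% of all genes. Leaving out each of the other libraries in turn gave adjusted p-values of 0.224 to 0.732 and log2 fold changes of 0.64 to 0.90.

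The neighbours of H2aw were set beside it, since its annotated transcript reaches base 58956830 and shares 708 exonic bases with Trim17, a ubiquitin ligase gene on the same strand. RefSeq places Trim17 at chr11:58954671-58973075, a span that holds the whole RefSeq gene of H2aw. Trim17 so begins inside the H2aw promoter window printed below, and that window is also its upstream region. Trim17 had 1460, 1602 and 1237 counts without stress and 1318, 1509 and 1177 with stress (log2 difference -0.07, SE 0.10, adjusted p = 0.807 in edgeR). Rnf187 and Trim11, which flank the small cluster, had log2 fold changes of -0.05 and -0.02. H2bu1-ps, a transcribed pseudogene at chr11:58954048-58954512 whose end overlaps the H2aw promoter window printed below, had 22, 16 and 22 counts without stress and 18, 31 and 24 with stress (0.30, SE 0.32, adjusted p = 0.731). H2bu2, at chr11:58948911-58949372, had 1046, 1191 and 1073 counts without stress and 1073, 1262 and 1135 with stress, with overlapping groups (log2 difference 0.09, SE 0.07, adjusted p = 0.596). H3f4, which GENCODE lists as an unprocessed pseudogene and RefSeq as coding, lies near them and is classed as a variant by its symbol. It had 1, 1 and 0 counts without stress and 8, 2 and 4 with stress and was not tested. How reads in the stretch that H2aw shares with Trim17 were assigned is not given in the sources used here, and its part in the H2aw counts was not tested.

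The promoters of H2aw and H2bu2 are printed because these neighbours had log2 differences of 0.77 and 0.09, whose own difference was not tested. Each is the 250 bases before the gene's start on the plus strand, from RefSeq, build GRCm38.p6, at chr11:58954435-58954684 and chr11:58948661-58948910. Capitals mark the CCAAT box, the TATAAA element and the octamer ATTTGCAT, which POU factors bind, on either strand, where a match on the minus strand reads as the reverse complement. The matches in these windows do not overlap.
H2aw promoter: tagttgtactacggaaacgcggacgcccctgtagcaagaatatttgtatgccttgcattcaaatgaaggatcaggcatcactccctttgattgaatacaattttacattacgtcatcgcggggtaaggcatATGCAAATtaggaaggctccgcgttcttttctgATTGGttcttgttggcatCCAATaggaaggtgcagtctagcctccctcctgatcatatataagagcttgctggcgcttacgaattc
H2bu2 promoter: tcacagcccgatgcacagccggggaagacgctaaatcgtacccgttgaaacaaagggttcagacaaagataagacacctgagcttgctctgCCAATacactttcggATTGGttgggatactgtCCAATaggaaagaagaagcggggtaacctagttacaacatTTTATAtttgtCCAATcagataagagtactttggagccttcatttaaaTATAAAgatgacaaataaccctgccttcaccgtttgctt
The H2aw window held CCAAT on both strands and the octamer on the minus strand, and no exact TATAAA. A similar run of letters, tatataag, stands near the end of the H2aw window and was not searched for. The 2 windows therefore differ in the exact letters TATAAA only, which does not show that H2aw lacks a TATA element. The H2bu2 window held 3 CCAAT on the plus strand and 1 on the minus strand, with TATAAA on both strands, and no octamer. CCAAT was found in 33.8% of 32851 promoters of this length, TATAAA in 12.4% and the octamer in 1.6%. Of 61 clustered genes with a promoter in the table, 51 held CCAAT, 29 TATAAA and 13 the octamer, and of 34 variant genes 12, 3 and 1 did. Only the letters were searched, and no binding was measured.

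H4c4, an H4 gene of the chromosome 13 cluster chosen for description after its values were seen, had 67, 61 and 76 counts without stress and 109, 107 and 88 with stress. Its groups did not overlap, at 1.55 ± 0.255 CPM and 2.35 ± 0.346 CPM (SD, n = 3), and the log2 difference was 0.60 (SE 0.19, adjusted p = 0.351 in edgeR). H2ac20, an H2A gene of the chromosome 3 cluster, had 0.255, 0.298 and 0.309 CPM without stress and 0.362, 0.482 and 0.468 CPM with stress, without overlap. Its log2 difference was also 0.60, with an SE of 0.32 and an adjusted p of 0.472. H1f2, a linker histone of the chromosome 13 cluster, had 3.87, 4.74 and 4.44 CPM without stress and 5.02, 5.30 and 5.26 CPM with stress, again without overlap, and the log2 difference was 0.25 (SE 0.12, adjusted p = 0.431). H2bc4 stood just past overlap, with its lowest stress library at 19.5 CPM and its highest non-stress library at 19.4 CPM, and the log2 difference was 0.17 (adjusted p = 0.401). The lowest fitted values of the clustered class were those of H2bc11 and H2bc18, both H2B genes, at -0.06 with SEs of 0.30 and 0.52. H2bc11 had 17, 16 and 17 counts without stress and 16, 16 and 15 with stress (adjusted p = 0.949). H2bc18 had 7, 13 and 12 against 17, 5 and 8 counts (adjusted p = 0.975), and its sign changed when single libraries were left out.

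**Figure D3:**
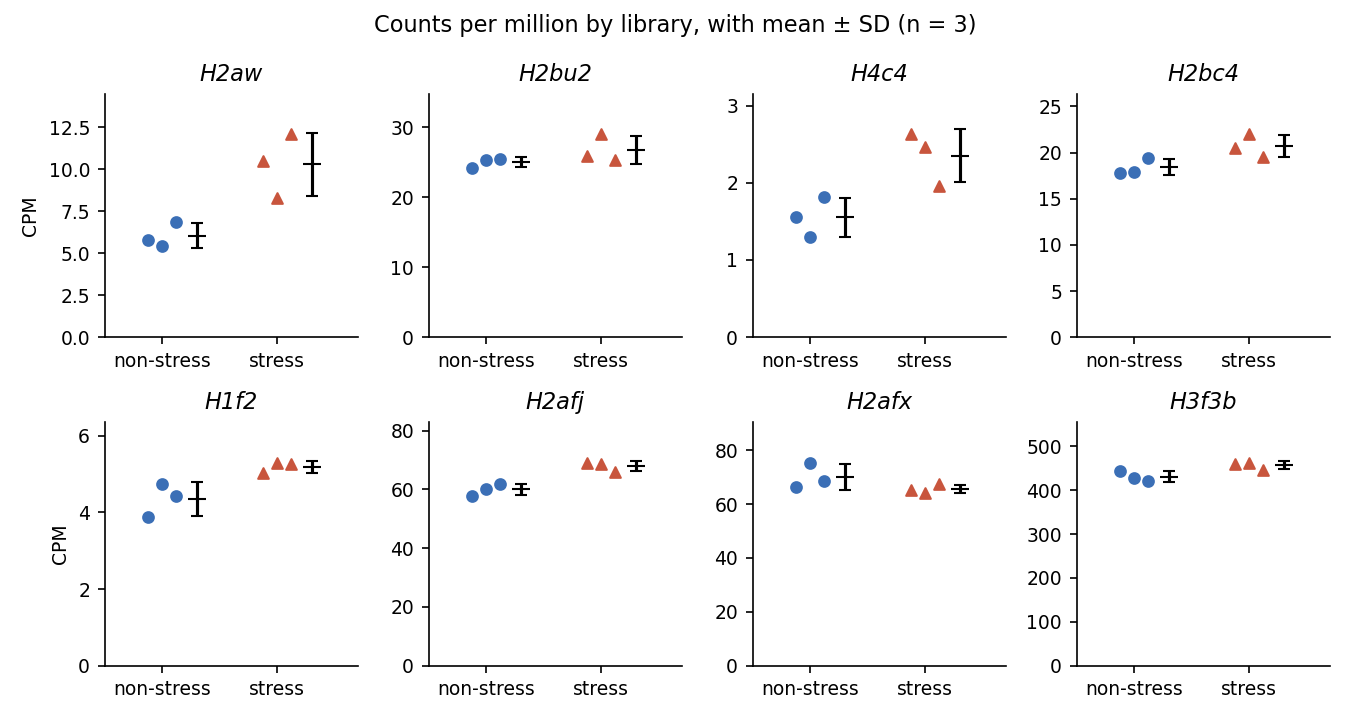
CPM of 8 histone genes in each library, circles for non-stress and triangles for stress, with the mean and SD of 3 libraries as a bar beside each group; each panel has its own axis from 0. The stress libraries of H2aw, H4c4, H2bc4, H1f2, H2afj and H3f3b lie above all non-stress libraries, and those of H2bu2 and H2afx overlap with them.

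Variant genes had small fitted values. H2afj, which encodes an H2A variant, had 57.9, 60.2 and 61.7 CPM without stress and 69.1, 68.6 and 65.9 CPM with stress, with no overlap (log2 difference 0.18, SE 0.05, adjusted p = 0.344 in edgeR). H3f3b also did not overlap, at a log2 difference of 0.08 (adjusted p = 0.427), and H3f3a overlapped at 0.12 (adjusted p = 0.457). H3f3c, which GENCODE lists as a processed pseudogene and RefSeq as coding, shares 245 stretches of 50 bases with H3f3a. It had 7.29, 5.95 and 6.25 CPM without stress and 6.78, 7.05 and 7.53 CPM with stress (0.13, adjusted p = 0.646). H1f10 had 12.3, 15.9 and 10.9 CPM without stress and 10.9, 11.0 and 11.3 CPM with stress (log2 difference -0.24, SE 0.13, adjusted p = 0.481), and non-stress 2 was its highest library. H2afx had 66.4, 75.4 and 68.4 against 65.3, 64.3 and 67.3 CPM (log2 difference -0.09, adjusted p = 0.52). H2afz and H1f0 were at 0.04 and -0.05.

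As a class, the clustered genes lay mostly on the stress side of 0 by small amounts. Of the 34 that were tested, 32 had a log2 fold change above 0 (94.1%), with a median of 0.21 and a range from -0.06 to 0.77. Over all genes tested, 49.8% were above 0. The groups did not overlap in 11 clustered genes, all of them higher with stress, where 8.7% of all genes were higher without overlap and 9.2% lower. Of the 9 variant genes tested, 6 were above 0, with a median of 0.04 and 2 higher without overlap. 1 of the 34 clustered genes passed the filter with a mean under 10 counts in non-stress. These counts describe the genes that passed the filter, not all 67. Near-copies among them share sequence, H2ac19 in every stretch of 50 bases and Hist1h2ao in 93.5%. How reads of such copies were counted is not given, so the 34 cannot be taken as separate readings. Relative to the non-stress mean, the median of the tested clustered genes lay at -0.05, 0.00 and 0.06 in non-stress 1 to 3 and at 0.23, 0.32 and 0.08 in stress 1 to 3, on the log2 scale, so stress 3 was close to the non-stress range.

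**Figure D4:**
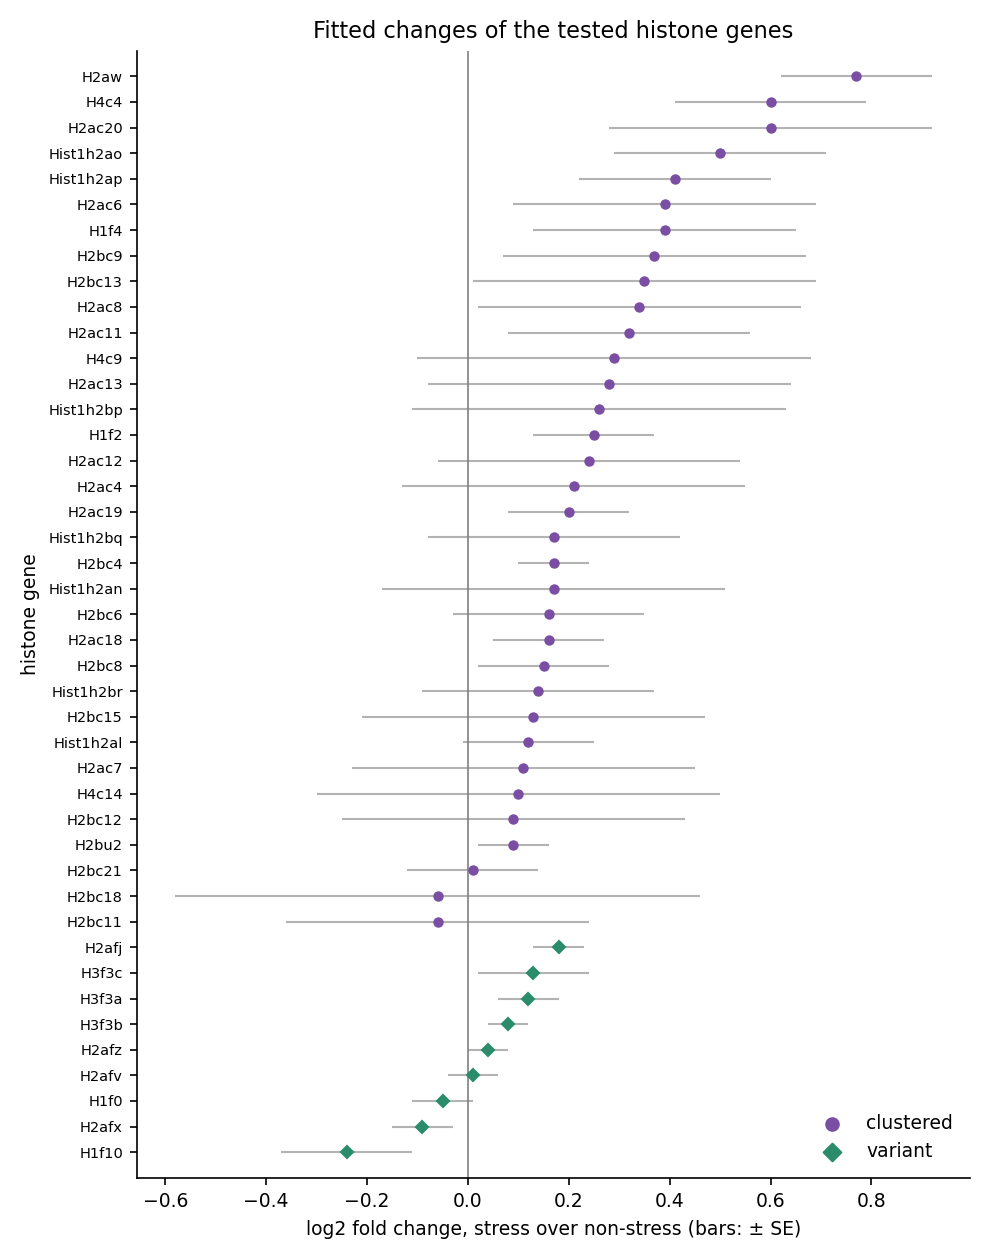
Fitted log2 fold change of stress over non-stress for the 43 histone genes tested, with bars of 1 SE; circles are clustered genes and diamonds variant genes. 32 of 34 clustered genes and 6 of 9 variant genes lie to the right of 0, and none passed the threshold.

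Summed levels are given by family. The clustered sum was 90.2 ± 3.63 CPM without stress and 105 ± 3.10 CPM with stress (SD, n = 3), a ratio of 1.16, and the variant sum was 1211 ± 12.4 and 1256 ± 15.3 CPM, a ratio of 1.04. Clustered H2A genes summed to 25.2, 24.0 and 27.3 CPM without stress and to 32.9, 32.4 and 33.6 CPM with stress, a ratio of 1.29, and without H2aw the ratio was 1.16. Clustered H4 genes had a ratio of 1.35, from 2.70 ± 0.390 to 3.64 ± 0.426 CPM, and without H4c4 the ratio was 1.13, from 1.15 ± 0.146 to 1.29 ± 0.0799 CPM. Clustered H1 genes had a ratio of 1.23, clustered H2B genes 1.09 and clustered H3 genes 0.922, the last on under 1 CPM in every library. Without H2aw the clustered sum went from 84.2 ± 2.96 to 94.6 ± 4.98 CPM, a ratio of 1.12. No p-value is given for these sums, because the family was chosen with results of these data known.

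Short transcripts in general lay on the same side. Among 201 other tested genes whose longest coding transcript has 700 bases or fewer, 168 had a log2 fold change above 0 (83.6%), with a median of 0.13 and 22.9% higher without overlap. Among the 118 of them with a mean under 30 CPM the figures were 74.6%, 0.11 and 17.8%. At an unadjusted p under 0.05 in edgeR, 59 of the 201 were higher with stress and 0 lower, and of the 118, 16 and 0. Of the 34 clustered genes 4 were higher and 0 lower, beside 5.8% and 6.27% of all genes. Of any length, other tested genes with a mean under 30 CPM were above 0 in 51.7% (median 0.01), and those with a mean under 1 CPM in 57.3% (median 0.08). Clustered genes of 700 bases or fewer were above 0 in 17 of 19 with a median of 0.20, and those with longer transcripts in 14 of 14 with a median of 0.27. These lengths are from GENCODE. RefSeq ends some of the longer clustered genes sooner, H2aw and H4c4 among them, so the split depends on the annotation. The part of transcript length in the clustered values was not tested. By transcript end, the medians were 0.21 for genes that end at the stem-loop (9 of 10 above 0) and 0.31 for genes that run past it (12 of 12 above 0).

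Genes that make, process and place histones were near evenly split by sign. Of 15 genes of histone transcription and 3′ end processing, 7 were above 0 with a median of -0.01, and 0 passed. 4 of the 15 were higher with stress without overlap (26.7%) and 0 lower, and 2 were higher and 0 lower at an unadjusted p under 0.05. Those of smallest p were Casp8ap2, a factor of the histone locus body, and Npat, the activator of histone genes in S phase. Casp8ap2 had 18.2, 8.08 and 10.7 CPM without stress and 19.1, 19.6 and 18.6 CPM with stress (log2 difference 0.64, adjusted p = 0.367 in edgeR). Npat had 15.9, 12.8 and 14.7 against 16.5, 17.1 and 16.3 CPM (0.21, adjusted p = 0.405). In Casp8ap2 non-stress 1 lay near the stress libraries and non-stress 2 and 3 lay below, the same order as on the first principal component. Of 22 histone chaperone and exchange genes, 10 were above 0, with a median of -0.01. 2 were higher without overlap (9.09%) and 0 lower, and 2 were higher and 0 lower at an unadjusted p under 0.05, beside the same shares of all genes. Without non-stress 1, 1 gene of each of these lists passed, in a fit that called 3.85% of all genes. Atrx, a chromatin remodeller that places replacement H3, had 189, 76.6 and 87.0 CPM without stress and 189, 182 and 185 CPM with stress (0.66, adjusted p = 0.398), again with non-stress 1 at the stress level, and Asf1a, a chaperone of H3 and H4, was at 0.16 (adjusted p = 0.377).

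Genes of DNA replication and mitosis were split evenly between the directions. Of 26 tested, 13 were above 0 and 13 below, with a median of -0.02, and their summed level was 210, 217 and 220 CPM without stress and 215, 203 and 214 CPM with stress. E2f1, an activator of S phase genes, was at -0.25 (adjusted p = 0.351 in edgeR). Top2a, a topoisomerase of dividing cells, had 15, 25 and 14 counts without stress and 43, 23 and 36 with stress (0.95, adjusted p = 0.363). RNAs without a poly(A) tail were above 0 in 9 of 17, with a median of 0.00. The pair of smallest p was Rn7s1 and Rn7s2, near-identical genes of the signal recognition particle RNA, at 0.66 and 0.63 (adjusted p = 0.351). The histone genes whose symbols fall outside the pattern, Macroh2a1, Macroh2a2 and Cenpa, were at 0.07, 0.06 and 0.06.

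Markers of cell types were read beside the clustered sum. The neuron sum was lower in every stress library than in every non-stress library, with 5 of 7 markers below 0 and 0 past the threshold. Those of smallest p, Rbfox3 and Gad1, were each at -0.11 (adjusted p = 0.363 and 0.402 in edgeR), while Gad2 was at 0.14 and Syt1 at 0.01. Snap25 held most of the neuron sum, with means of 6546 CPM without stress and 6404 CPM with stress (-0.03). Oligodendrocyte precursors are the main dividing cells of the adult cortex, and their 3 markers summed to 47.3, 48.1 and 49.8 CPM without stress and to 50.7, 52.2 and 53.2 CPM with stress, with 3 of 3 above 0 and 0 past the threshold. The 4 red blood cell markers summed to 279 to 360 CPM without stress and 285 to 368 CPM with stress, and the 4 microglia markers to 234 to 238 and 224 to 238 CPM. Astrocyte markers summed to 655 to 703 CPM without stress and 646 to 665 CPM with stress. Oligodendrocyte markers summed to 4783 to 5940 and 5278 to 5719 CPM, with 3 of 4 below 0. Endothelium markers summed to 69.7 to 83.1 and 77.3 to 79.3 CPM. Cortical layer markers summed to 175 to 184 and 183 to 189 CPM. The part of any cell type in the histone values was not tested.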

How the data were processed

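Total RNA from the anterior cingulate cortex was made into libraries with a low-input SMARTer kit, per the labels' protocols. Trimmomatic 0.38, HISAT2 and StringTie were used with build GRCm38 (mm10), per the submitters' processing notes; how reads were counted, with which annotation and strand setting, and how multiply mapped reads were treated is not given in the sources used here. The authors deposited whole-number counts per gene, which were used unchanged.

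Members and lists were chosen with earlier results of these data known. Counts were scaled by TMM and tested on all 19227 genes kept by filterByExpr with edgeR 4.0.16 (R 4.3.3, quasi-likelihood, group as the single term, two-sided, Benjamini-Hochberg, threshold 0.05). Means are over 3 libraries. The edgeR fit was tested on simulated data, and the other steps were not. A floor of 3 counts covers counting error only. Values in full were given for the 6 members of highest mean CPM in each class, H2aw, and the 2 largest and 2 smallest fitted changes per class, with the 2 list members of smallest p. Replicate numbers did not pair the libraries. Alternatives were other size factors, filters of none or 50 counts in 3 libraries, DESeq2 1.42.0, limma-voom (limma 3.58.1), a replicate block and each library left out. Transcripts of GENCODE vM21 were found for 101 of 103 members.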

Additional observations from a re-analysis of the deposited data

How the results depend on the processing

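Over 17 described genes and 218 alternative values, 207 kept direction and side of the threshold. H2bc11, H2bc18 and H2ac20 had no adjusted p in DESeq2 and were counted there as not past the threshold. The count of histone genes past the threshold was 0 in edgeR, 1 with DESeq2, 0 to 1 with a library left out (1 without non-stress 1, where it was H2aw) and 0 under the other alternatives. The count over all genes was 1, against 116 with DESeq2, 2 with limma-voom, 2 with a replicate block, 1 to 756 with a library left out (756 without non-stress 1) and 16 when non-stress 2 and 3 had their own term, an alternative chosen after seeing the data. Same-numbered libraries had correlations of deviation of 0.016, -0.0298 and 0.0209, so the numbers do not pair them. The clustered median stayed between 0.17 and 0.29 with a library left out, and its ratio of sums between 1.14 and 1.19; the variant median was -0.01 with that term. H2bc18, at 0.115 to 0.410 CPM, ranged from -0.71 to 0.27 with a library left out; it reversed to 0.06, 0.07, 0.27 and 0.11 without non-stress 2, non-stress 3, stress 2 and stress 3, and to 0.51 with the added term. H1f0 ranged from -0.11 to 0.01 (reversed without non-stress 2), and with the added term reversed to 0.09, H2afz to -0.01 and H3f3c to -0.03; the cause was not tested. Of 67 clustered genes, 33 did not pass the filter on low counts and have no fitted value.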
